A study of Homo sapiens with 20 samples.

Results

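Transcripts of 10 Wnt target and intestinal stem genes (SP5, LGR5, AXIN2, ASCL2, NKD1, LEF1, TCF7, RNF43, ZNRF3 and PROX1) were followed in 2 human colorectal cancer (CRC) cell lines, HT29 and SW480. They were taken by name, as 10 of the 36346 gene names in the data, and each name had 1 row in every library. POLR1D, a subunit shared by RNA polymerases I and III, was silenced by siRNA, and RNA was harvested 72 h after transfection. HT29 had 4 libraries with scrambled siRNA (SCR), 2 with siPOLR1D-2 and 2 with siPOLR1D-3, and SW480 had 6 with SCR, 3 with siPOLR1D-2 and 3 with siPOLR1D-3. The comparisons asked how the transcriptome of each line differs once POLR1D is silenced. Both siRNAs were set against the same SCR libraries of a line, and the labels do not say whether libraries came from separate cultures, so p values measure only the spread between these libraries.

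In the canonical Wnt pathway, a complex built on APC and AXIN marks beta-catenin for degradation, and a Wnt ligand bound to its receptors halts this. Beta-catenin then enters the nucleus and activates genes with TCF/LEF factors. In the intestine the pathway maintains the stem cells of the crypt base, and most CRC carry mutations, often in APC, that keep it active without ligand. Both HT29 and SW480 are APC-mutated lines. Several targets are brakes on the pathway itself, and transcripts of its targets are widely read as a gauge of pathway output.

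The genes hold different places in the pathway, and their positions are those of the GENCODE annotation on hg38. AXIN2 (chr17:65528563-65561647, minus strand) is a scaffold of the destruction complex, and NKD1 (chr16:50548330-50649249, plus strand) binds Dishevelled and dampens the signal. RNF43 (chr17:58352500-58417595, minus strand) and ZNRF3 (chr22:28883592-29057487, plus strand) are ubiquitin ligases that remove Frizzled receptors from the cell surface. LGR5 (chr12:71439770-71586310, plus strand), a receptor for R-spondin, marks crypt base stem cells. LEF1 (chr4:108047545-108168956, minus strand) and TCF7 (chr5:134114711-134151865, plus strand) encode nuclear partners of beta-catenin. SP5 (chr2:170715351-170718078, plus strand), ASCL2 (chr11:2268495-2270952, minus strand) and PROX1 (chr1:213983181-214041502, plus strand) encode transcription factors. ASCL2 is a master regulator of the intestinal stem cell state, and PROX1 is a target induced in colorectal tumours. All values are sums over a gene's transcripts, with no separation by exon or isoform.

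Promoter sequence from RefSeq (GRCh38.p14) was found for 4 of the 10 genes, SP5, LEF1, TCF7 and RNF43, in 6 windows of 250 bases before a start site. The TCF/LEF motif was searched on both strands in forms that differ in their opening bases and so cannot sit at the same place. These were AACAAAG in its first form, ATCAAAG in its second form, TACAAAG in another and TTCAAAG in the last. Of 35116 windows of this length in RefSeq promoters, 11.958% held at least 1 match and 0.122% held 3 or more. The SP5 window is shown because SP5 was among the genes called in SW480 and held 3 matches, which begin 148, 109 and 84 bases before the start site. Capitals mark the matches in chr2:170715087-170715336 (plus strand).
SP5: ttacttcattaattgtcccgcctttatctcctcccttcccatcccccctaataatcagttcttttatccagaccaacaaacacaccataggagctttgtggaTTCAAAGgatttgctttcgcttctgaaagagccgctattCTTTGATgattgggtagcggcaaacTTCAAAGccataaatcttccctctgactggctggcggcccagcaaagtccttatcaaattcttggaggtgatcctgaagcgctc
One of the 2 windows of TCF7 held 1 match, 50 bases before its start site, and the other TCF7 window, both windows of RNF43 and the window of LEF1 held none. A match describes these letters only, and binding was not measured.

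Before the results, 4 properties of the libraries need stating. The targeted gene was lower in every silenced library than in every SCR library of its line. POLR1D had a mean of 2116 ± 281 normalized read counts in SW480 SCR (SD, n = 6) and 1036 ± 183 in silenced SW480 (SD, n = 6), and the fold between the mean log2 values was 2.05. In HT29 the means were 5048 ± 699.7 in SCR (SD, n = 4) and 3078 ± 452 after silencing (SD, n = 4), 1.64-fold lower. In both lines this separation gave the smallest p that an exact permutation test allows (2-sided), 0.00216 in SW480 and 0.0286 in HT29. Depth was estimated at 13533093 to 27588335 reads a library. In HT29, SCR 1 and SCR 2 stood apart on the first principal component of all genes (43.3% of the variance). SCR 2 (18.7) lay nearer than SCR 1 (88.3) to the other HT29 libraries, which scored from -21.1 to -15.1. In SW480 this component (42.0%) put SCR 1 to 3 and siPOLR1D-2 1 and 2 on a first side, and SCR 4 to 6, siPOLR1D-2 3 and all 3 siPOLR1D-3 libraries on a second side, so that siPOLR1D-3 had no library on the first side. The sides are split at a score of 0, and SCR 1 (-14.1) lay nearer to it than SCR 2 (-71.5) and SCR 3 (-71.4). Of 8 epithelial markers, CDX1 was under 10 in every library of both lines and CDX2 in every HT29 library. Summed fibroblast, leukocyte and endothelial markers reached at most 852, 175 and 143, against at least 131802 for the epithelial markers.

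In SCR cells, the SW480 line carried far more transcript of 5 of these genes than HT29. As the authors normalized the lines separately, levels were compared here as a description, after each library's summed value was set to 1000000 (ppm). Of the 9 genes that passed the filter over SCR libraries (at least 10 in at least 4 of them), SP5, AXIN2, NKD1, LEF1 and PROX1 were higher in all 6 SW480 SCR libraries than in all 4 HT29 SCR libraries, and none was higher in HT29 without overlap. Over all 15141 genes, 27.9% lay wholly above in SW480 and 15.5% wholly above in HT29. SP5, NKD1, LEF1 and PROX1 passed the filter only through the SW480 libraries, where they are high. Their count beside this share therefore carries no weight as support. The same 5 genes lay above in SW480 on the values as deposited and after rescaling all 20 libraries together.

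The brakes on the pathway were split in this respect. AXIN2 had 101 ± 27.9 ppm in HT29 SCR (SD, n = 4) and 460 ± 164 in SW480 SCR (SD, n = 6), a ratio of means of 4.56. NKD1 was near the lower end of the data in HT29, at 0.0316 to 0.65 ppm, and at 149 to 300.1 in SW480. RNF43 had 37.5 ± 9.94 ppm in HT29 and 33.1 ± 7.20 in SW480 (SD, n = 4 and 6), and ZNRF3 had 37.4 ± 10.7 and 42.5 ± 8.77. Both ligase genes overlapped between the lines.

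Among the transcription factors, SP5 had 0.432 ± 0.340 ppm in HT29 SCR and 31.4 ± 7.42 in SW480 SCR (SD, n = 4 and 6). PROX1 showed the same order, with 0.496 ± 0.271 and 56.5 ± 15.6 ppm. LEF1 ran from 0 to 0.244 ppm in HT29 and from 19.5 to 36.9 in SW480. TCF7, the other nuclear partner measured, overlapped, with 24.4 ± 9.97 and 21.8 ± 5.63 ppm. ASCL2 did not pass the filter, and was at most 0.062 ppm in HT29 SCR and 0.195 to 0.75 in SW480 SCR. LGR5 had the reverse order of means, 29.1 ± 18.8 ppm in HT29 and 10.4 ± 6.83 in SW480, 2.81-fold higher in HT29, but its libraries overlapped, from 6.59 to 46.5 and from 5.19 to 22.6.

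**Figure D1:**
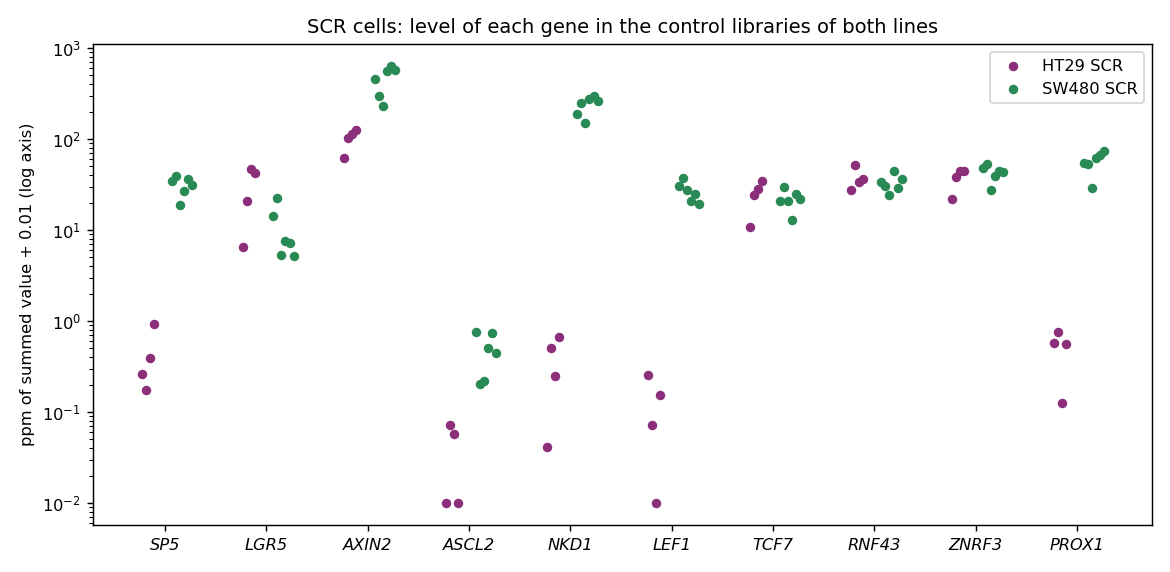
Level of each gene in SCR libraries, in ppm of the library's summed value plus 0.01 on a log axis, with each point 1 library (4 HT29, 6 SW480). SP5, AXIN2, NKD1, LEF1 and PROX1 lie wholly higher in SW480, while LGR5, TCF7, RNF43 and ZNRF3 overlap.

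In SW480, silencing of POLR1D came with more SP5 and PROX1 transcript, and all 10 genes had a positive log2 difference. PROX1 rose by 0.92 (SE 0.20, limma adjusted p = 0.0184) and SP5 by 0.74 (SE 0.17, limma adjusted p = 0.0216) on the log2(value + 1) scale. All 10 genes passed the filter (10 or more in at least 6 libraries), 2 were called higher at an adjusted p under 0.05, none lower, and 6 had an unadjusted p under 0.05. Of all 15019 genes tested, 2.44% were called higher and 3478 had an unadjusted p under 0.05 in limma. The median log2 difference of the 10 genes was 0.63, against 0.01 over all genes. The authors had already listed SP5 and PROX1 as changed in both lines from these same libraries. The members were chosen with earlier results known, so these calls and the median are not independent support. Leaving out each of the 12 libraries in turn kept SP5 and PROX1 called each time, with adjusted p up to 0.0498 for SP5. Neither was called when all 20 libraries of both lines were fitted together, with the same log2 differences, where 3.02% of all genes were called higher. Nor was either called within the first side alone, where limma called 0% of all genes higher and the differences were 0.85 for PROX1 and 0.71 for SP5.

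PROX1 was the gene whose groups separated. Its normalized read counts in SW480 SCR ran from 651 over a median of 1251 to 1552. With siPOLR1D-2 they were 1997, 1613 and 2113, and with siPOLR1D-3 they were 2292, 2573 and 3019. Every silenced library thus lay above every SCR library, which held for 1.68% of all genes and for 1 of these 10. The exact permutation test of its mean log2 values gave p = 0.00216 (2-sided), the smallest it can give. Full separation fixes this value, so it adds nothing to the separation, and it was not adjusted for the 10 genes.

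SP5 ran from 428 over a median of 713 to 891 in SCR. It had 1092, 1124 and 885 with siPOLR1D-2 and 1255, 1107 and 1208 with siPOLR1D-3. Only siPOLR1D-2 3 fell inside the SCR range, just under the highest SCR library. ASCL2 stayed low in all SW480 libraries, from 4.43 over a median of 9.59 to 17.2 in SCR. Its values were 25.4, 14.0 and 29.7 with siPOLR1D-2 and 14.9, 22.7 and 33.9 with siPOLR1D-3, so that 4 silenced libraries lay above the SCR range. The log2 difference was 1.21 (SE 0.38, limma adjusted p = 0.0761), and ASCL2 passed the filter mainly through the silenced libraries.

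AXIN2 ran from 5137 over a median of 10948 to 13357 in SCR. It had 10798, 10228 and 15614 with siPOLR1D-2, and 20823, 19589.6 and 20398 with siPOLR1D-3. The siPOLR1D-3 libraries were all above the SCR range, and of the siPOLR1D-2 libraries the one on the second side was. The pooled log2 difference was 0.74 (SE 0.26, limma adjusted p = 0.101), which missed the threshold. With the side of the first principal component as a factor it was 0.60 (SE 0.14, limma adjusted p = 0.0157), and 4 of the 10 genes were then called higher, AXIN2, PROX1, SP5 and TCF7, beside 5.41% of all genes. The side was drawn from these same values, silenced libraries included. Calls in this and every other fit that uses the side are therefore not independent support.

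NKD1 ran from 3359 over a median of 5536 to 6282 in SCR, with 6341, 6226 and 6349 for siPOLR1D-2 and 7893, 6695 and 6683 for siPOLR1D-3. All but 1 of the silenced libraries exceeded the SCR range, by little for siPOLR1D-2, and the log2 difference was 0.41 (SE 0.14, limma adjusted p = 0.0926). ZNRF3 ran from 619.6 over a median of 917 to 1215 in SCR. It had 1005, 1019 and 1050.4 with siPOLR1D-2 and 1222, 1087 and 1133 with siPOLR1D-3, mostly inside the SCR range (log2 difference 0.26, SE 0.14, limma adjusted p = 0.296).

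LGR5 was the most scattered of the 10 in SW480 SCR, where 4 libraries lay between 109 and 155, SCR 1 at 326 and SCR 2 at 514. It had 339, 241 and 174 with siPOLR1D-2 and 367, 464 and 340.1 with siPOLR1D-3. The groups overlapped and the log2 difference was 0.66 (SE 0.37, limma adjusted p = 0.299). Within the second side, where the SCR libraries ran from 109 to 155 and the silenced ones from 174 to 464, LGR5 rose by 1.21 (SE 0.29, limma adjusted p = 0.0258). Within the first side, with 3 SCR and 2 silenced libraries, the difference was 0.07 (SE 0.55, limma adjusted p = 0.978).

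TCF7 ran from 259 over a median of 473 to 683 in SCR. It had 653, 742 and 517 with siPOLR1D-2 and 780.04, 753 and 786 with siPOLR1D-3. The siPOLR1D-3 libraries lay above the SCR range and the siPOLR1D-2 libraries largely within it (log2 difference 0.60, SE 0.19, limma adjusted p = 0.0790). LEF1 and RNF43 had the highest adjusted p of the 10 genes, with log2 differences of 0.27 (SE 0.24, limma adjusted p = 0.544) and 0.21 (SE 0.24, limma adjusted p = 0.657).

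**Figure D2:**
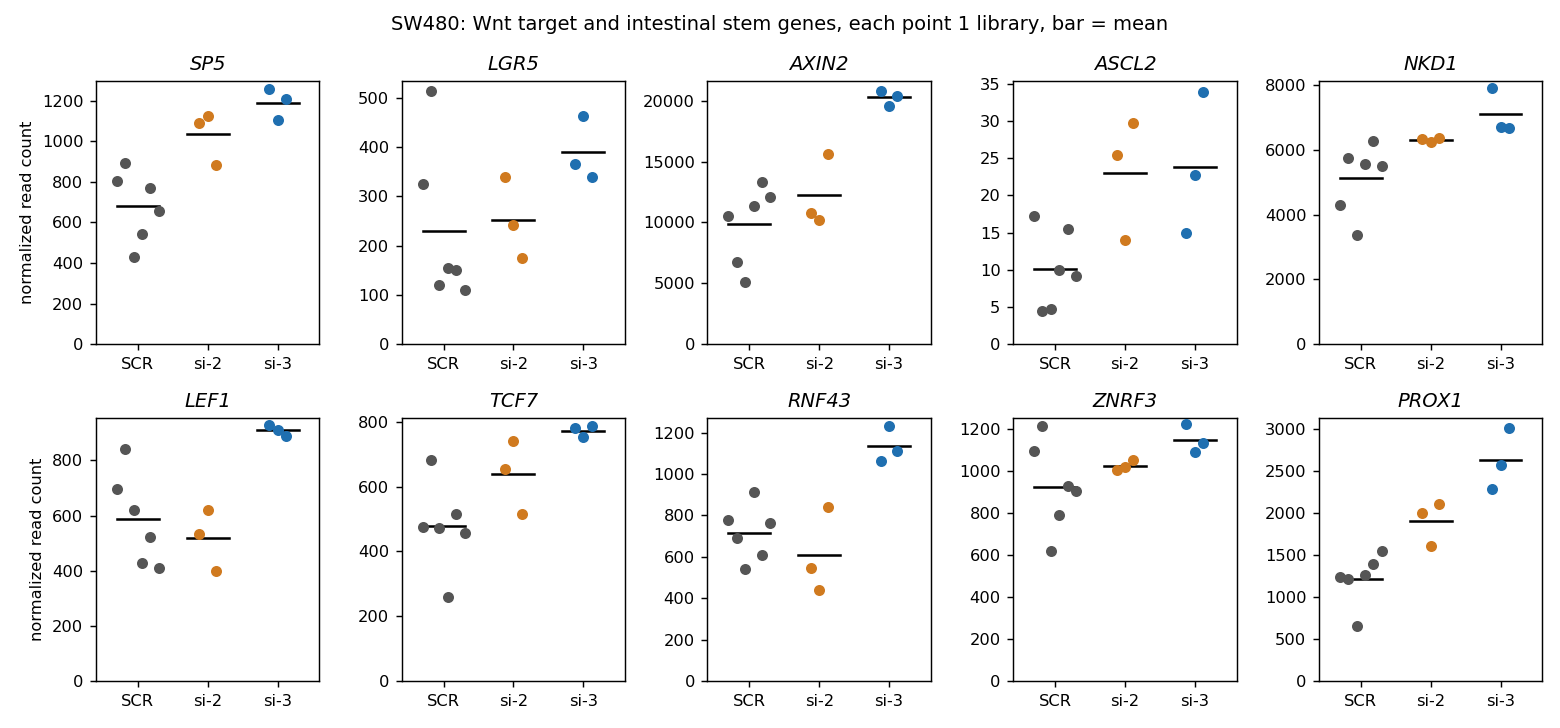
Normalized read counts of the 10 genes in SW480, with SCR, siPOLR1D-2 (si-2) and siPOLR1D-3 (si-3) on the horizontal axis, each point 1 library and bars the group means. All 6 silenced libraries lie above the 6 SCR libraries for PROX1 alone, and the siPOLR1D-3 libraries have the highest group mean for all 10 genes.

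Taken singly, the siRNAs gave different numbers of calls in SW480. With siPOLR1D-3, 3 of 10 genes were called higher, with log2 differences of 1.15 for PROX1 (SE 0.22, limma adjusted p = 0.0122), 0.84 for SP5 (SE 0.20, limma adjusted p = 0.0295) and 1.11 for AXIN2 (SE 0.27, limma adjusted p = 0.0298). All 10 differences were positive, and 9 had an unadjusted p under 0.05 in limma, as had 3751 of all 15019 genes. Of all genes, 2.15% were called higher. These calls are close to the threshold, as none of the 10 genes was called when any 1 of the 3 siPOLR1D-3 libraries was left out. Calls were then fewer over all genes too, with 0.185%, 0.363% and 0.244% called higher. When SCR 2 was left out, 6 of the 10 were called, beside 1.8% of all genes. With the side as a factor, 6 of the 10 were called with siPOLR1D-3 (AXIN2, LEF1, LGR5, PROX1, SP5 and TCF7), beside 2.14% of all genes, and PROX1 had a log2 difference of 0.94 (SE 0.21, limma adjusted p = 0.0229). With siPOLR1D-2, limma called 0 of 10 genes, where 3.16% of all genes were called higher. Of the 10 genes, 3 had an unadjusted p under 0.05, near the share over all genes (3753 of 15019). Its log2 differences were 0.68 for PROX1 (SE 0.22, limma adjusted p = 0.0789), 0.63 for SP5 (SE 0.20, limma adjusted p = 0.0737) and 0.36 for AXIN2 (SE 0.27, limma adjusted p = 0.447). Without SCR 2 SP5 was called with siPOLR1D-2, and without SCR 3 PROX1 was, beside 4.05% and 2.76% of all genes called higher.

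The siRNAs were also compared with each other, and RNF43, the receptor-removing ligase, was the gene called. It ran from 543 over a median of 726 to 913 in SCR. It had 545, 437 and 839.9 with siPOLR1D-2 and 1061, 1232 and 1110 with siPOLR1D-3, the former overlapping SCR and the latter wholly above it. The direct comparison gave a log2 difference of 0.95 for siPOLR1D-3 over siPOLR1D-2 (SE 0.23, limma adjusted p = 0.0445), the 1 call among the 10 genes, where 1.62% of all genes were called higher. The call was lost without SCR 5, SCR 6, siPOLR1D-2 1, siPOLR1D-2 2 or any siPOLR1D-3 library. In those fits 0.138% to 1.09% of all genes were called higher, so calls were fewer over all genes too. LEF1 had a like layout, from 409 over a median of 570.5 to 840.02 in SCR, with 535, 622 and 399 for siPOLR1D-2 and 929, 910.0 and 889.7 for siPOLR1D-3. Its difference between the siRNAs was 0.83 (SE 0.25, limma adjusted p = 0.0868). With the side as a factor, RNF43 was no longer called (0.71, SE 0.22, limma adjusted p = 0.134) and LEF1 was (1.25, SE 0.16, limma adjusted p = 0.00445), beside 0.839% of all genes called higher. On the second side siPOLR1D-2 has 1 library, so this rests on few libraries. POLR1D itself had a mean of 1073 ± 229 with siPOLR1D-2 and 999.2 ± 166 with siPOLR1D-3 (SD, n = 3 each).

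**Figure D3:**
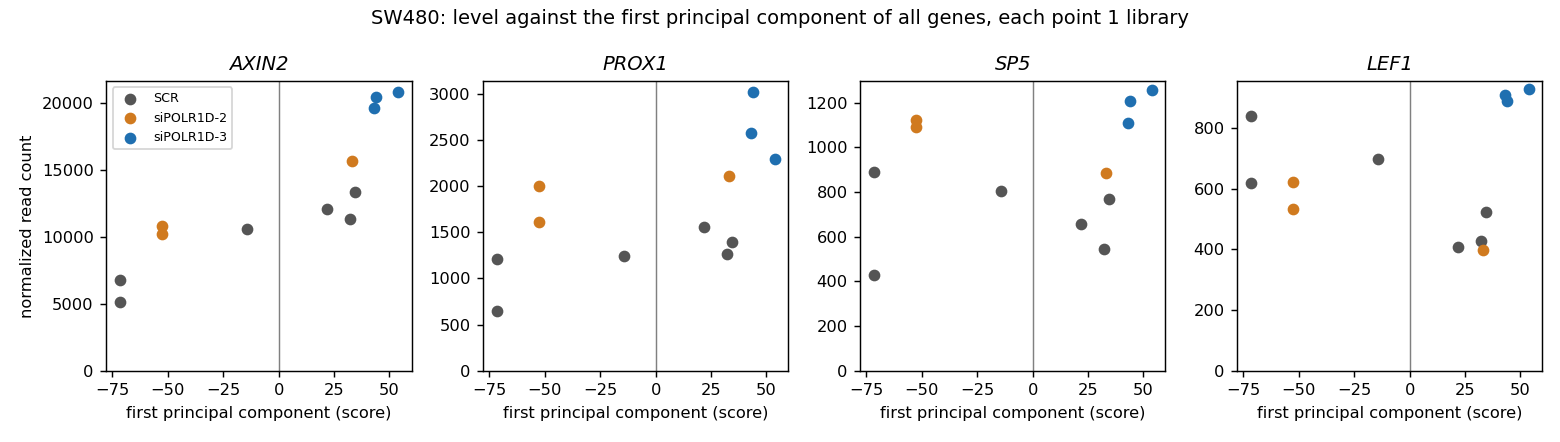
Normalized read counts of AXIN2, PROX1, SP5 and LEF1 in the 12 SW480 libraries against the library's score on the first principal component of all genes, with a line at 0 between the sides. AXIN2 is higher on the second side in SCR and in silenced cells, and all 3 siPOLR1D-3 libraries lie at the right edge.

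The side of the first principal component moved with several of these genes within SCR cells alone, and its part in the siRNA results was not tested beyond the fits given. In SW480 SCR, AXIN2 averaged 7486 on the first side and 12257 on the second (n = 3 each), PROX1 1035 and 1404, and NKD1 4461 and 5784. LEF1 went the other way, with 719 and 453, as did the means of LGR5 with 320 and 139. The sides overlapped for LGR5 (120 to 514 and 109 to 155) and NKD1 (3359 to 5736 and 5499 to 6282), and not for AXIN2, PROX1 and LEF1. They also overlapped for SP5, ASCL2, TCF7, RNF43 and ZNRF3. The sides were drawn from these same values over all genes. Separation between them therefore carries no weight as support, and its share over all genes was not counted. PROX1 ran from 651 (SCR 3) to 1241 on the first side and from 1261 to 1552 on the second. After silencing, AXIN2 averaged 10513 in the 2 libraries of the first side and 19106 in the 4 of the second. Within the second side 5 of 10 genes were called higher (AXIN2, LGR5, PROX1, SP5 and TCF7), beside 5.59% of all genes, with 3 of the 4 silenced libraries carrying siPOLR1D-3. Within the first side, where both silenced libraries carry siPOLR1D-2, limma called none of these or of all other genes, and LEF1 and RNF43 had log2 differences of -0.31 and -0.44.

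In HT29, limma called none of these genes after POLR1D silencing, as it called none of all 13274 genes tested (0% higher, smallest adjusted p 0.316). POLR1D itself was among the genes not called, so the absence of calls does not show an absence of change. With DESeq2 the authors did list SP5 and PROX1 as changed in HT29. ASCL2 and LEF1 did not pass the filter (at least 10 in at least 4 libraries). The other 8 genes had positive log2 differences, and 6 of them an unadjusted p under 0.05 in limma, as had 1422 of all 13274 genes. SP5, NKD1 and PROX1 are near the filter in SCR and passed it largely through the silenced libraries, so these counts carry no weight as support. Every silenced library lay above every SCR library for AXIN2 and ZNRF3, as for 2.72% of all genes. PROX1 also separated, which carries no weight given how it passed the filter. For AXIN2 and ZNRF3 the exact permutation test gave p = 0.0286 (2-sided), the smallest it can give with 4 libraries against 4. Full separation fixes this value too, and it was not adjusted for the genes tried.

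AXIN2 was 1291, 1937, 2072 and 2307 in the HT29 SCR libraries. It was 2619 and 2973 with siPOLR1D-2, and 3529 and 3767 with siPOLR1D-3, so the groups did not overlap and the siPOLR1D-3 libraries were the highest. The log2 difference was 0.78 (SE 0.19, limma adjusted p = 0.355), and 0.54 (SE 0.15, limma adjusted p = 0.253) without SCR 1 and SCR 2. ZNRF3 was 465, 716, 816 and 824 in SCR, 884 and 922 with siPOLR1D-2, and 1151 and 1160.3 with siPOLR1D-3. The same order of the groups gave a log2 difference of 0.57 (SE 0.19, limma adjusted p = 0.409), and 0.32 without SCR 1 and SCR 2.

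PROX1, hardly detected in HT29, was 11.9, 14.1, 2.10 and 10.1 in SCR, 25.4 and 25.2 with siPOLR1D-2, and 52.9 and 36.5 with siPOLR1D-3. The log2 difference was 1.92 (SE 0.53, limma adjusted p = 0.358), and 2.55 (SE 0.56, limma adjusted p = 0.162) without SCR 1 and SCR 2. SP5 was 5.36, 3.13, 7.07 and 16.9 in SCR, 14.2 and 35.4 with siPOLR1D-2, and 62.1 and 71.3 with siPOLR1D-3. One siPOLR1D-2 library lay below the highest SCR library, and the log2 difference was 2.34 (SE 0.59, limma adjusted p = 0.355), or 1.73 without SCR 1 and SCR 2. NKD1 overlapped in the same way, with 0.667, 9.28, 4.41 and 11.9 in SCR, 10.9 and 26.2 with siPOLR1D-2, and 19.4 and 37.7 with siPOLR1D-3 (log2 difference 1.94, SE 0.67, limma adjusted p = 0.412, and 1.43 without SCR 1 and SCR 2).

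LGR5 was 139, 387, 855 and 781 in HT29 SCR, with the lowest values in SCR 1 and SCR 2. It was 675 and 1512 with siPOLR1D-2, and 1418 and 1387 with siPOLR1D-3. The log2 difference of 1.45 (SE 0.53, limma adjusted p = 0.430) came to 0.54 (SE 0.29, limma adjusted p = 0.500) without SCR 1 and SCR 2. TCF7 was 229.99, 452, 514 and 634 in SCR and 548 to 617 in the 4 silenced libraries, inside the SCR range, and its log2 difference of 0.46 came to 0.05 without SCR 1 and SCR 2. RNF43 was 588, 962, 627 and 671 in SCR, 896 and 680.3 with siPOLR1D-2, and 967 and 912 with siPOLR1D-3, overlapping throughout (log2 difference 0.29, SE 0.18, and 0.40 without SCR 1 and SCR 2). ASCL2 was at most 1.16 in SCR and 5.22 after silencing, and LEF1 at most 5.14 and 0.788.

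**Figure D4:**
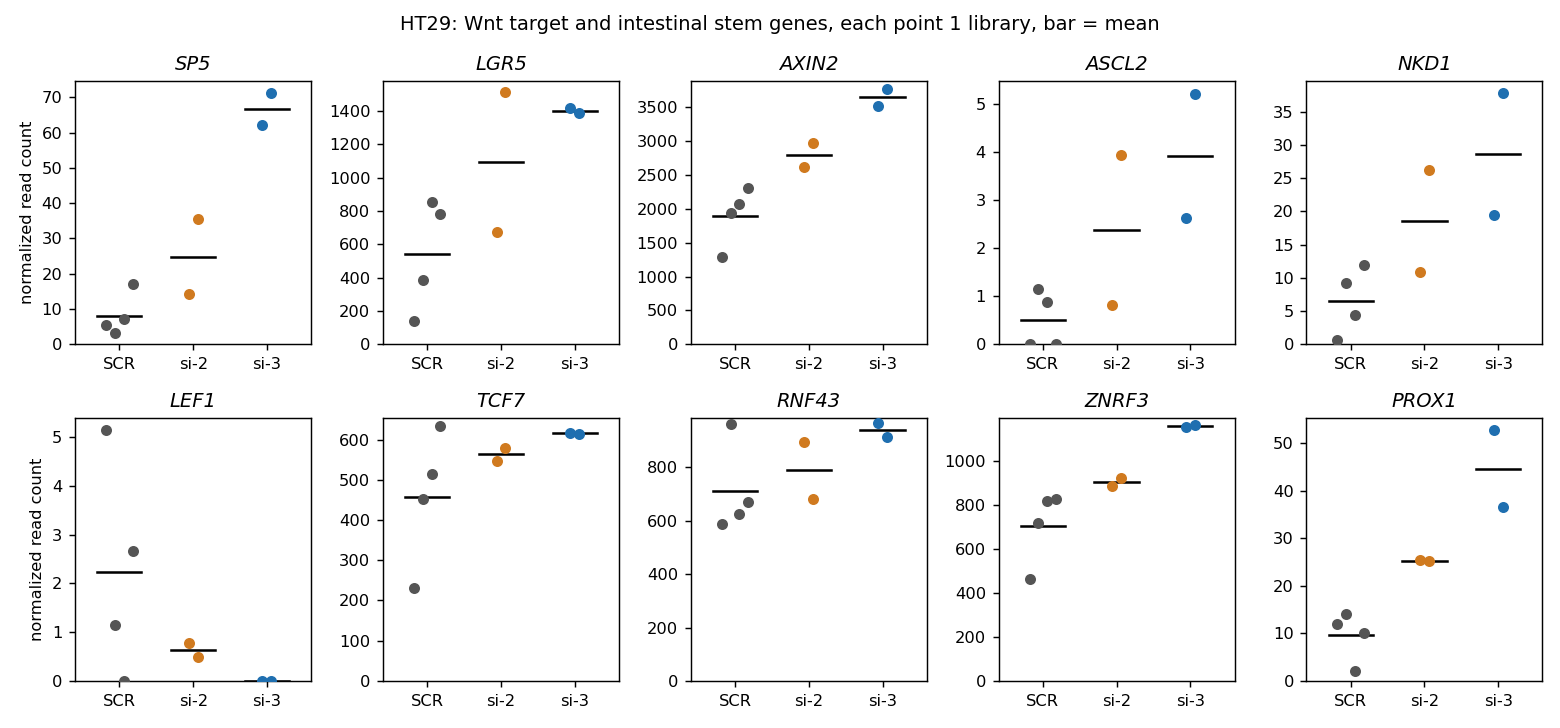
Normalized read counts of the 10 genes in HT29, drawn as for SW480 (4 SCR, 2 siPOLR1D-2 and 2 siPOLR1D-3 libraries, bars the group means). AXIN2, ZNRF3 and PROX1 separate the silenced from the SCR libraries, and ASCL2 and LEF1 stay below 6.

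Neither siRNA taken singly gave a call in HT29, where 0% of all genes were called higher with either. With siPOLR1D-2, 3 of the 8 genes had an unadjusted p under 0.05 in limma, and with siPOLR1D-3 6 did. Of all 13274 genes, 579 and 1031 did. Both counts include SP5 and PROX1, and that of siPOLR1D-3 also NKD1. As these genes passed the filter largely through the silenced libraries, the counts carry no weight as support. The log2 differences with siPOLR1D-2 and siPOLR1D-3 were 1.58 and 3.10 for SP5 (SE 0.63 each), 0.59 and 0.97 for AXIN2 (SE 0.22 each) and 1.54 and 2.31 for PROX1 (SE 0.64 each). POLR1D averaged 3453 ± 55.4 with siPOLR1D-2 and 2704 ± 218 with siPOLR1D-3 (SD, n = 2 each). The difference between the siRNAs was not tested in HT29.

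**Figure D5:**
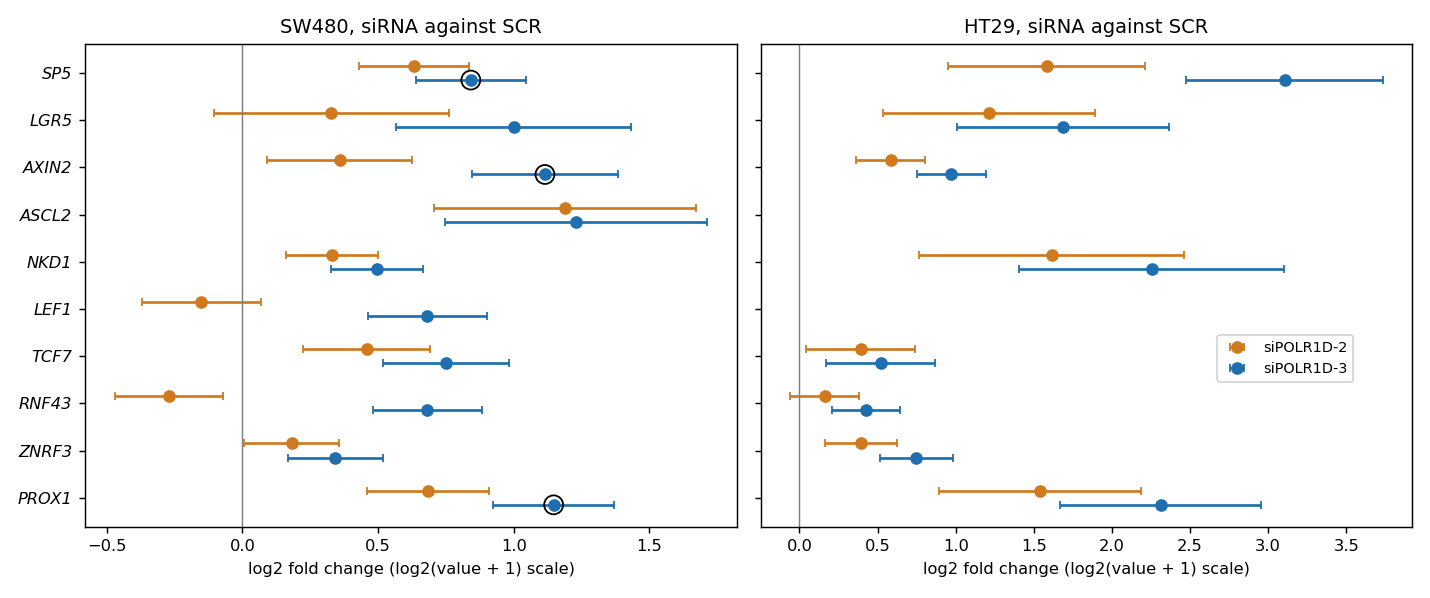
Log2 difference from SCR for each siRNA in SW480 and HT29, on the log2(value + 1) scale, with bars of 1 SE from limma and circles around differences at an adjusted p under 0.05. Circles mark SP5, AXIN2 and PROX1 with siPOLR1D-3 in SW480, and LEF1 and RNF43 are below 0 with siPOLR1D-2 in SW480.

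The difference in response between the lines was tested as an interaction over all 20 libraries. Limma called 0 of the 10 genes, where 0.037% of 16203 genes were called in either direction. An unadjusted p under 0.05 was found for 1342 of all genes and for 3 of the 10. These were SP5, with a log2 response lower by 1.61 in SW480 (difference -1.61, SE 0.53, limma adjusted p = 0.361), NKD1 (-1.52, SE 0.56, limma adjusted p = 0.426) and LEF1 (1.31, SE 0.55, limma adjusted p = 0.517). SP5, NKD1 and LEF1 are at or under a value of 20 in HT29 SCR, where a difference on the log2(value + 1) scale rests on few reads. For AXIN2 the responses differed by -0.04 (SE 0.37).

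The wider pathway was read from a list of 136 other genes, of which 112 passed the filter in SW480 and 87 in HT29. In SW480, 5 were called higher and 4 lower, against 2.44% and 4.29% of all genes, with a median log2 difference of 0.07. In HT29 none was called, and 12 had an unadjusted p under 0.05 in limma, as had 1422 of all 13274 genes. By role in SW480, 1 of 12 ligands, 1 of 16 receptor genes, 1 of 19 genes of the destruction complex and cytoplasm and 2 of 17 nuclear genes were higher. One receptor gene, 1 of the destruction complex and cytoplasm, 1 of 26 other targets and 1 of 11 intestinal stem genes were lower. None of the 11 extracellular inhibitors was called.

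Among those called higher in SW480, TLE3, a Groucho corepressor of TCF factors, had means of 1832 ± 198 in SCR and 2676 ± 148 after silencing (SD, n = 6 each; log2 difference 0.55, limma adjusted p = 0.00488). The ligand gene WNT4 had 26.1 ± 5.56 and 54.6 ± 15.7 (log2 difference 1.02, limma adjusted p = 0.0232). AMER1, which tethers APC to the membrane, had 223 ± 68.5 and 443 ± 139 (log2 difference 0.99, limma adjusted p = 0.0304). LRP6, the co-receptor, had 4174 ± 535 and 5462 ± 454 (log2 difference 0.40, limma adjusted p = 0.0366).

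Of those called lower, TNKS2, a tankyrase that promotes the degradation of AXIN proteins, had means of 2798 ± 329.9 in SCR and 1961 ± 123 after silencing (SD, n = 6 each; log2 difference -0.51, limma adjusted p = 0.00806). The receptor gene FZD6 had 1413 ± 258 and 906 ± 136 (log2 difference -0.63, limma adjusted p = 0.0165). CDK6, a cell cycle kinase, had 1199 ± 348 and 706 ± 45.7 (log2 difference -0.72, limma adjusted p = 0.0198).

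The core genes of the pathway did not pass the threshold in the pooled comparison of either line. In SW480 the log2 difference was 0.41 for CTNNB1, which encodes beta-catenin (SE 0.21, limma adjusted p = 0.275), -0.20 for APC (SE 0.13, limma adjusted p = 0.398) and 0.04 for TCF7L2 (SE 0.12, limma adjusted p = 0.887). MYC, a classic target, averaged 5261 ± 802 in SW480 SCR (SD, n = 6), 4856 ± 350.2 with siPOLR1D-2 and 3158 ± 417 with siPOLR1D-3 (SD, n = 3 each). With siPOLR1D-3 MYC fell by 0.73 on the log2 scale (limma adjusted p = 0.0108), opposite to AXIN2, SP5 and PROX1 in the same libraries. Of all genes, 4.45% were called lower with siPOLR1D-3. All siPOLR1D-3 libraries lie on the second side, and the part of the side was not tested for MYC. In HT29, MYC differed by 0.06 (SE 0.18), CTNNB1 by 0.04 (SE 0.10), TCF7L2 by 0.10 (SE 0.16) and APC by -0.33 (SE 0.12, limma adjusted p = 0.430).

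In the comparison of siPOLR1D-3 with siPOLR1D-2 in SW480, limma called 4 of the 112 tested pathway genes higher and none lower, 44 had a negative difference, and the median was 0.08, where 1.62% of all genes were called higher. Of these 4, EPHB2, CD44 and DACT1 are given as a description, picked after their values were seen. EPHB2, a crypt receptor and Wnt target, averaged 342 ± 97.5 in SCR, 347 ± 69.8 with siPOLR1D-2 and 882 ± 64.3 with siPOLR1D-3, a difference between the siRNAs of 1.36 (SE 0.26, limma adjusted p = 0.0193). CD44 averaged 2715 ± 192 in SCR, 1653 ± 485 with siPOLR1D-2 and 4088 ± 435 with siPOLR1D-3, so that it was lower with one siRNA and higher with the other. Its difference between the siRNAs was 1.35 (SE 0.19, limma adjusted p = 0.00523). DACT1, a binding partner of Dishevelled, averaged 22.2 ± 12.2, 17.8 ± 11.4 and 182 ± 23.5 in the same order, with a difference of 3.45 (SE 0.52, limma adjusted p = 0.00777). As siPOLR1D-2 1 and siPOLR1D-2 2 lie on the first side and all siPOLR1D-3 libraries on the second, siRNA and side cannot be cleanly told apart here. The part of the side was not tested for these genes.

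The genes whose pattern was most like that of AXIN2 in SW480 were sought by Pearson's r over the 12 libraries after subtraction of the group means. Among the closest of 15018 genes were CASTOR2 (r = 0.989), AIF1L (0.988), BMP4 (0.988) and CCR1 (0.987). The points share the division into sides of the first principal component. Of the other 9 genes, PROX1 was the closest (r = 0.82, rank 1017), followed by ASCL2 (0.75), NKD1 (0.63) and RNF43 (0.59). SP5 had r = 0.25, and LEF1, TCF7 and LGR5 had negative values of -0.66, -0.43 and -0.28.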

How the data were processed

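RNA was captured with an exome panel and sequenced as paired-end reads of 75 bp. The authors quantified it with kallisto (0.44.0) and normalized the estimated counts per gene with DESeq2 (1.24.0) within each line on hg38. The index is not given in the sources used here. The deposited signal values (normalized read counts) are not whole: between 21.9% and 49.3% of low values in a library were multiples of the value taken as 1 read (tolerance 0.01), so count tests were not used and no floor or interval from counting was derived. Estimated depth limits values under about 10, and no library was a copy of another.

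Rows sharing a name were summed. Limma (3.58.1, R 4.3.3) was fitted with a trend to log2(value + 1) over all genes of each line that reached 10 in 4 HT29 or 6 SW480 libraries, the size of the smaller group, and the same genes entered the fits of single siRNAs. p values were adjusted by Benjamini-Hochberg, with 0.05 as threshold, and differences are understated for low genes. Exact permutation tests (2-sided) were added for single genes. The code was tested on simulated data. Replicate numbers did not pair the libraries (r from -0.595 to 0.391 over 9 pairs in SW480, 2 of them over 0.1, and from -0.174 to 0.038 over 6 pairs in HT29). The members and lists were chosen with earlier results of these data known. Besides the 10 genes, the text names up to 8 called pathway genes a line, MYC, CTNNB1, APC and TCF7L2, the 5 genes most like AXIN2, POLR1D and the marker genes, and also EPHB2, CD44 and DACT1, picked after their values were seen. Alternatives covered normalization, filter, pseudocount, trend, block, side, a joint fit and each library left out. Items that this rule picks but that are withheld are not reported here.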

Additional observations from a re-analysis of the deposited data

Results flagged for a closer look

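Among 36 groups of 4 or 6 libraries (8 genes in HT29 and 10 in SW480, SCR and silenced), 3 held a library far from the rest by Dixon's test on log2 values, and chance alone gives about 1 in 20. LGR5 was 675 in HT29 siPOLR1D-2 1, the lowest of the 4 silenced libraries. PROX1 was 651 in SW480 SCR 3, the lowest of 6. NKD1 was 7893 in SW480 siPOLR1D-3 1, the highest of 6. RNF43 was picked out because the effects of the 2 siRNAs in SW480 differed, by 0.95 on the log2 scale (limma adjusted p = 0.0445), and all 3 siPOLR1D-3 libraries lie on the second side of the first principal component.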

How the results depend on the processing

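In SW480 the count of 2 called genes became 0 with the replicate block (0 of all genes called; PROX1 1.16, adjusted p = 0.118, SP5 0.71, adjusted p = 0.148, limma), 0 with all 20 libraries in 1 fit, 0 within the first side, 4 with the side as a factor and 5 within the second side. In HT29 the count of 0 became 3 with the replicate block (AXIN2, LGR5 and SP5, beside 735 of all 13274 genes against 0) and 1 (SP5, beside 4 of all genes) with all 20 libraries in 1 fit. The block acts on replicate numbers. SCR 3 and 4 of HT29 and SCR 4 to 6 of SW480 share their number with no silenced library. Silenced libraries were thus set only against SCR 1 and 2 in HT29, which stood apart, and SCR 1 to 3 in SW480. LGR5 in HT29 differed by 2.35 with the block and by 0.54 without SCR 1 and 2. For siPOLR1D-2 in SW480 the count of 0 became 1 with the side as a factor (PROX1, beside 6.05% of all genes called higher), and ran from 0 to 1 with a library left out. For siPOLR1D-3 in SW480 the count of 3 became 6 with quantile normalization and 6 with the side as a factor, beside 3.04% and 2.14% of all genes called higher. It became 2 without the trend (AXIN2 lost, 1.79% of all genes) and 2 with the replicate block (SP5 lost, 2.26%), and ran from 0 to 6 with a library left out. For siPOLR1D-3 against siPOLR1D-2 the count of 1 became 0 without the filter, 0 without the trend and 0 with the replicate block, beside 0.558%, 1.01% and 0.173% of all genes called higher. It stayed at 1 with the side as a factor (LEF1 in place of RNF43), and ran from 0 to 1 with a library left out. With a library left out the pooled count ran from 2 to 3 in SW480 and stayed at 0 in HT29. LEF1 in SW480 turned to -0.067 with the replicate block, against SCR 1 to 3 alone, and to -0.31 within the first side, and RNF43 to -0.44 there. The fits with the block, within a side and with libraries left out rest on fewer libraries. Beyond this the cause was not tested. Alternatives other than leaving out a library kept the sign of the other 8 genes in SW480 and of all 8 tested in HT29. The fits within a side, without SCR 1 and 2 of HT29, and with block or side for single siRNAs include alternatives chosen after seeing the data.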
